A study of Mus musculus with 32 samples.

Results

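The comparison described here is chronic constriction injury (CCI) of the sciatic nerve against a sham operation in the midbrain of mice that lack Cckbr, the cholecystokinin B receptor (called KO mice). Its members are the 4 KO midbrain arrays titled NP and described as neuropathic, KO CCI 1 to 4, and the 4 KO midbrain arrays titled as sham, KO sham 1 to 4, chosen by their titles alone, so 8 of the 32 arrays of the study. The other arrays hold the midbrain of control mice after either operation and the medulla of the same 4 kinds of mice, again 4 arrays a group, and each group is described as 4 separate animals. All KO mice, sham-operated ones included, carry the Cckbr deficiency, for which the labels name no restriction to a tissue, so the comparison shows CCI within the mutant only. The labels give no strain, age, sex, time after the operation, side of the injury or side of the tissue, and do not say whether the control mice were littermates. Each value is a background-subtracted fluorescence intensity of 1 probe set on a short-oligonucleotide mouse array, on a linear scale, and 22626 probe sets were compared.

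Cholecystokinin is among the most abundant neuropeptides of the brain, and the B receptor is the form that predominates there. In the midbrain the peptide is made by many dopamine neurons, and in the periaqueductal grey its release is known to oppose opioid analgesia through this receptor. In CCI, loose ligatures around the sciatic nerve constrict it and leave a lasting hypersensitivity of the hind paw, a model of neuropathic pain. The periaqueductal grey sends descending fibres through the medulla to the spinal cord and so sets how strongly pain signals are passed on. The comparison asks which midbrain transcripts differ after nerve injury when this receptor is missing.

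The targeted gene and the dissection were checked first. Cckbr read 12.9, -1.49, 11.97 and 9.17 intensity units in KO sham 1 to 4 and 8.80, 7.001, 6.66 and 5.91 in KO CCI 1 to 4, against 122 to 177 in the 8 control midbrain arrays. All 8 KO arrays lay at background and below every control array on this probe set, but the labels do not say whether its probes fall within the deletion. The other Cckbr probe set was dimmer. It read -3.25 to 13.5 in KO sham, -5.12 to 14.2 in KO CCI and 13.3 to 42.5 in control midbrain, so there the genotypes overlapped slightly. Th, the rate-limiting enzyme of dopamine synthesis, read 332 ± 22.2 (SD, n = 8) in KO midbrain and 75.9 ± 23.7 in KO medulla, and Slc6a3, the dopamine transporter, read 574 ± 69.5 and 6.53 ± 6.76. Hoxa5, a patterning gene of hindbrain and spinal cord, read 22.5 ± 5.18 in KO midbrain and 645 ± 192 in KO medulla. Of 32 Hox genes measured, 9 were higher in every KO medulla array than in every KO midbrain array. The share of all probe sets that did so was not counted. Of the midbrain patterning genes, En1 read 46.4 ± 9.59 in KO midbrain and 4.73 ± 6.09 in KO medulla. Pax7 read 30.5 ± 9.16 and 28.6 ± 9.74, and Pax5 82.0 ± 24.5 and 78.9 ± 19.2, so these did not separate the regions. Th, Slc6a3 and Hoxa5 thus followed the labelled region, but not every marker did. Between the operations Th differed by -0.04 on the log2 scale (standard error, SE, 0.10) and Slc6a3 by -0.07 (SE 0.14).

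Of the 4 KO sham arrays, 2 stood apart before any gene was compared. On the first principal component of the 16 midbrain arrays, which held 17.8% of the variance, KO sham 2 lay at -35.9 and KO sham 4 at -26.4. KO sham 1 and KO sham 3 lay at the other end, at 20.1 and 21.9, and the 4 KO CCI arrays lay between 3.16 and 17.7. KO sham 2 also had the highest log2 ratio of the 3' to the 5' control probe set of Actb, 1.59 against 0.363 to 0.730 on the other 15 arrays, a ratio that is higher where RNA is less intact. For KO sham 4 it was 0.625. The median SD of a probe set was 0.23 on the log2 scale in the KO sham group and 0.16 after CCI, against 0.16 and 0.13 in the sham and CCI groups of control mice. Differences of named genes that moved by over 1.5 times, or turned, without KO sham 2, KO sham 4 or both are given with such a value.

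**Figure D1:**
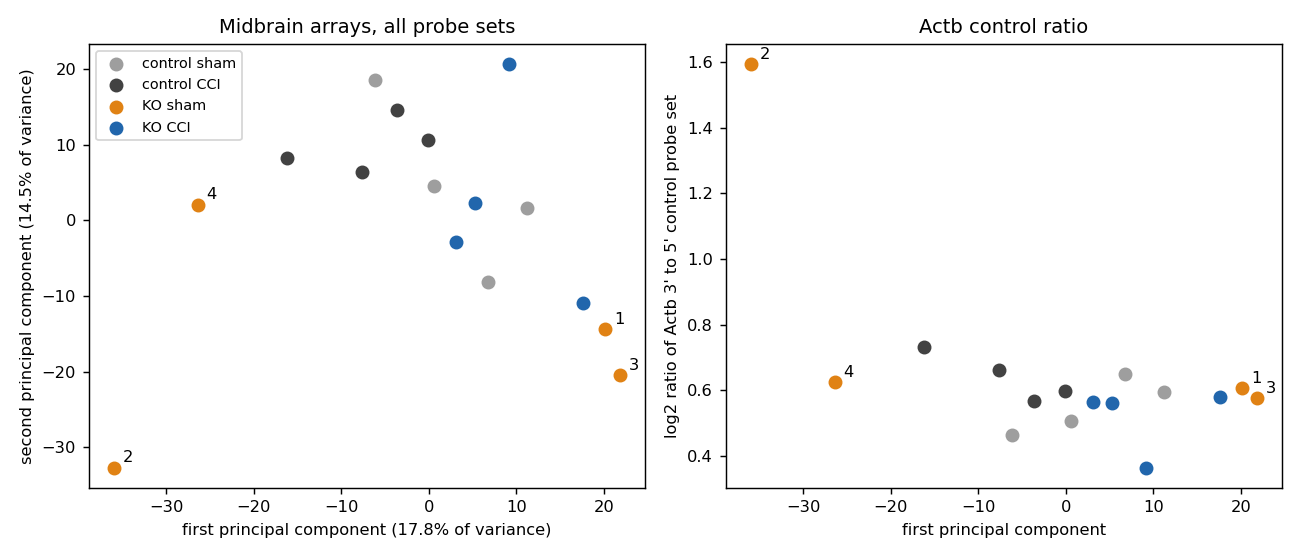
Left, the 16 midbrain arrays on the first and second principal components of all probe sets. Right, the first component against the log2 ratio of the 3' to the 5' Actb control probe set. Each point is 1 array, coloured by group, and the KO sham arrays carry their replicate number. KO sham 2 and 4 lie at -35.9 and -26.4 on the first component, and the Actb ratio of KO sham 2 is 1.59.

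Across the whole array no transcript passed. In limma's moderated test (two-sided, Benjamini-Hochberg adjusted over all 22626 probe sets), 0 probe sets had an adjusted p under 0.05, that is 0%, and the smallest adjusted p was 0.599. At an unadjusted p under 0.05 there were 1858 probe sets, or 8.21%, with 1120 higher after CCI (4.95%) and 738 lower (3.26%). With 1 probe set per gene the balance was the other way, 326 of 12393 genes higher and 435 lower, and without KO CCI 1 it was even, at 503 and 502 probe sets. In 419 probe sets (1.85%) every CCI array lay above every sham array, and in 211 (0.933%) every CCI array lay below. The median SE of a log2 difference was 0.14, and 4 arrays a group limit the precision. A single array weighed on these counts: 1005 probe sets had an unadjusted p under 0.05 without KO CCI 1 and 2987 without KO sham 1.

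The pair of sham arrays kept decided more. Without both KO sham 2 and KO sham 4, 2 probe sets passed. Of these, Hgd, named below, was higher after CCI, and Gsc, a homeobox gene, lay at background on every array. Without both KO sham 1 and KO sham 3, 716 probe sets passed, 424 higher and 292 lower. The pair kept in that fit, KO sham 2 and 4, had been set apart by the same expression values. Neither that count nor the count of the fit without KO sham 2 and 4 can therefore be read as a difference after CCI. Among those 716 were Ift27, a transport gene of cilia (151, 313, 141 and 388 in KO sham 1 to 4, and a KO CCI mean of 174), and Ctnnb1, which encodes beta-catenin (925, 542, 901 and 647, and 963). Nos1, the neuronal nitric oxide synthase, read 227, 73.6, 161 and 99.5 in the sham arrays and 144 on average after CCI. In each of these 3 genes, chosen after their values were seen, KO sham 2 and 4 lay on one side of the CCI mean. KO sham 1 lay on the other side for Ift27 and Nos1, and below the CCI mean with the others for Ctnnb1.

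**Figure D2:**
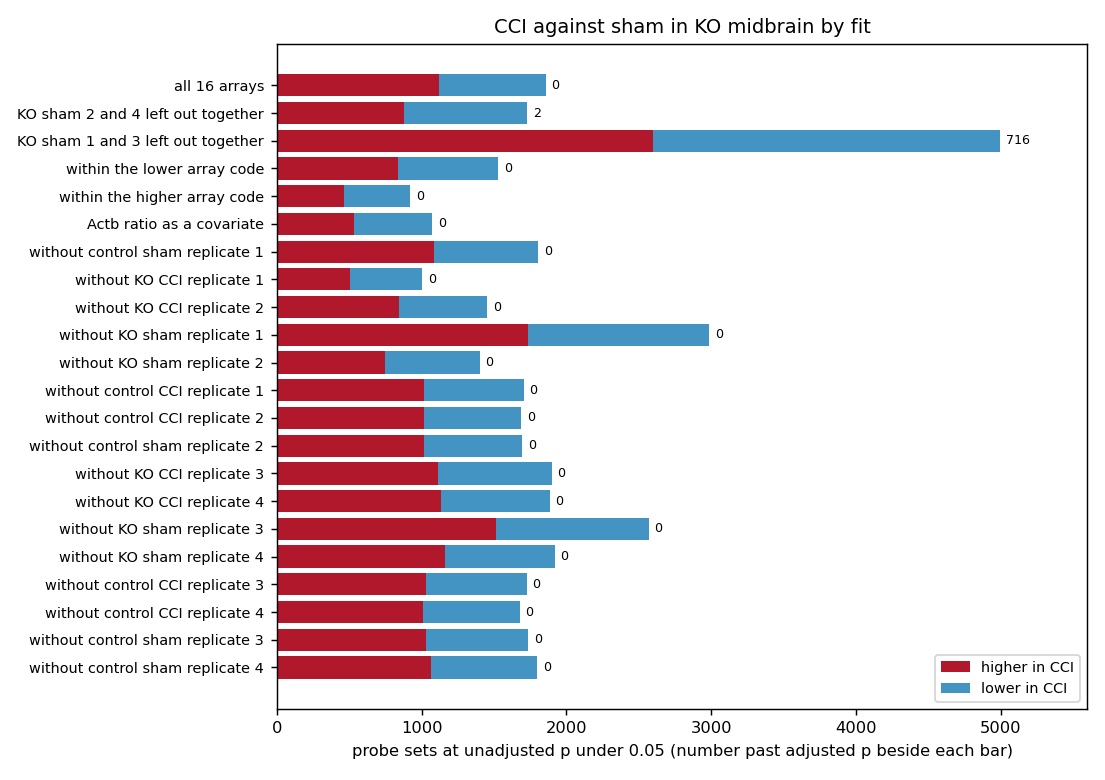
Number of probe sets at an unadjusted p under 0.05 for CCI against sham in KO midbrain, in the fit to all 16 midbrain arrays and in fits that leave out arrays, stay within 1 array code or hold the Actb ratio as a covariate. Red is higher and blue lower after CCI, and the number beside a bar is the count past an adjusted p of 0.05. The bar for the fit without KO sham 1 and 3 reaches 4997 with 716 past the threshold, and the fit to all arrays reaches 1858 with 0.

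Because none passed, the genes of smallest unadjusted p are described, 12 in each direction, 1 probe set a gene, with a mean of at least 50 in a KO midbrain group. All 24 had an adjusted p of 0.599, and in 20 of the 24 no CCI array overlapped a sham array. The contrast itself chose these genes, so that share supports nothing. It also chose the probe set of each: 18 of the genes had 41 other probe sets, of which 25 had the same direction, so the values below belong to a probe set rather than to a gene.

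Of the 12 higher genes Rasgrp1 had the largest difference. Rasgrp1, a calcium- and diacylglycerol-responsive exchange factor for Ras, read 28.7, 9.03, 33.1 and 13.8 in KO sham 1 to 4 and 137, 45.7, 56.2 and 50.3 in KO CCI 1 to 4. Every CCI array lay above every sham array, and KO CCI 1 stood far above the rest. On the scale of log2(intensity + 16) the difference was 1.18 (SE 0.25), or 2.26-fold, and it was 0.88 without KO CCI 1. The 8 control arrays read 35.1 to 51.3, so the 4 KO sham arrays lay below every control array. Its other probe sets read 0.34 (SE 0.21) and 0.17 (SE 0.17). Folds on this scale understate changes of dim genes.

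Cnot2 and Cnot8 encode subunits of the complex that removes poly(A) tails from mRNA. Cnot2 read 112, 88.9, 161 and 155 in the sham arrays and 244, 186, 197 and 204 after CCI, a difference of 0.63 (SE 0.14) or 1.55-fold. Cnot8 read 166, 124, 178 and 183, then 281, 235, 206 and 205.5, a difference of 0.46 (SE 0.10) or 1.38-fold. Control midbrain read 155 to 207 for Cnot2 and 197 to 231 for Cnot8, so in both genes the KO sham mean lay below the lowest control array. The other 3 probe sets of Cnot2 read -0.06, 0.06 and -0.18, so they did not share its difference, and that of Cnot8 read 0.10 (SE 0.07).

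Hgd, homogentisate dioxygenase of the pathway that breaks down tyrosine, read 27.8, 36.02, 25.04 and 41.5 in the sham arrays and 49.5, 52.1, 61.97 and 57.6 after CCI. The difference was 0.55 (SE 0.12), or 1.47-fold. Without KO sham 2 and 4 it was 0.80 and passed limma's test (adjusted p = 0.0373, with adjusted p between 0.0373 and 0.967 over all settings tried). Those arrays had been set apart by the same expression values and held the highest sham readings of Hgd. Leaving them out therefore had to enlarge its difference, and that pass supports nothing. In KO medulla Hgd read the other way, -0.58 (SE 0.18). The difference between the regions was 1.13 (unadjusted p = 0.000117 in limma's test), which did not pass over all probe sets. That fit treated the midbrain and medulla arrays as independent. Among probe sets that carry a gene name, the regional difference of Hgd had the smallest p.

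The remaining 8 higher genes lay between 0.33 and 0.64. Hhip, a membrane protein that binds and restrains Hedgehog ligands, read 33.7 ± 9.295 in sham and 55.4 ± 7.46 after CCI (0.53, SE 0.12), and its other probe set read 0.47 (SE 0.16). Adam17, the protease that sheds tumour necrosis factor from cells, read 36.6 ± 10.4 and 56.4 ± 8.07 (0.46, SE 0.11, or 0.31 without KO sham 2 and 4), with overlap between the groups. Its other probe sets read 0.15 and 0.00. Pold3, an accessory subunit of DNA polymerase delta, differed by 0.64, or 0.34 without KO sham 2 and 4, while its other probe set read -0.21 (SE 0.09). Rnf138, a ubiquitin ligase of double-strand break repair, differed by 0.40, with -0.32 and -0.01 on its other probe sets. Ercc8, of transcription-coupled repair, differed by 0.42, with 0.04, 0.19 and -0.28 on the others. Stag1, a cohesin subunit, differed by 0.45, with 0.23, 0.13 and 0.15 on the others. Ube4b, which lengthens ubiquitin chains, differed by 0.33 and its other probe set by -0.16, and Medag by 0.44 and 0.12.

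Of the 12 lower genes, the smallest p belonged to 4930507D05Rik, a gene of no role named here, which read 66.6, 48.1, 46.99 and 52.97 in the sham arrays and 30.7, 30.1, 32.7 and 31.9 after CCI. The difference was -0.57 (SE 0.10), and the 4 CCI arrays had an SD of 1.15. Its other probe set read -0.26 (SE 0.17).

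Foxo3, a forkhead factor restrained by insulin and growth factor signals, read 159, 94.3, 112 and 116 in the sham arrays and 81.9, 64.04, 89.5 and 90.4 after CCI. No array overlapped, and the difference was -0.50 (SE 0.13). Its other probe sets read the opposite way, 0.11 (SE 0.11) and 0.09 (SE 0.08). Control midbrain read 62.3 to 91.3, below every KO sham array. In KO medulla the difference was 0.16 (SE 0.15). Rela, the NF-kB subunit that drives many inflammatory genes, read 264, 297, 258 and 358 in the sham arrays and 220.0, 215, 252 and 225 after CCI, a difference of -0.35 (SE 0.09), or -0.21 without KO sham 2 and 4. C8g, a complement component of the lipocalin family, read 64.4, 68.5, 83.1 and 87.4, then 53.01, 53.2, 53.5 and 57.4, a difference of -0.41 (SE 0.10).

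Ddr1, a collagen-binding receptor tyrosine kinase, read 1012 ± 50.4 in sham and 814 ± 75.0 after CCI (-0.33, SE 0.08), and its other 7 probe sets read -0.33 to -0.05. Cklf, a chemokine-like factor, differed by -0.52, while its other 6 probe sets read -0.15 to 0.18. Tnk1, a non-receptor tyrosine kinase, differed by -0.57, with 0.02 and -0.24 on the others, and Erf, a repressor of the ETS family acting downstream of Ras, by -0.32. Ms4a8a at -0.40, Dcaf5, a substrate receptor of a ubiquitin ligase, at -0.32, Ptpn21, a tyrosine phosphatase, at -0.35 and Ogfod2 at -0.43 completed the list. For Ms4a8a control mice showed nearly the same value, -0.38.

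**Figure D3:**
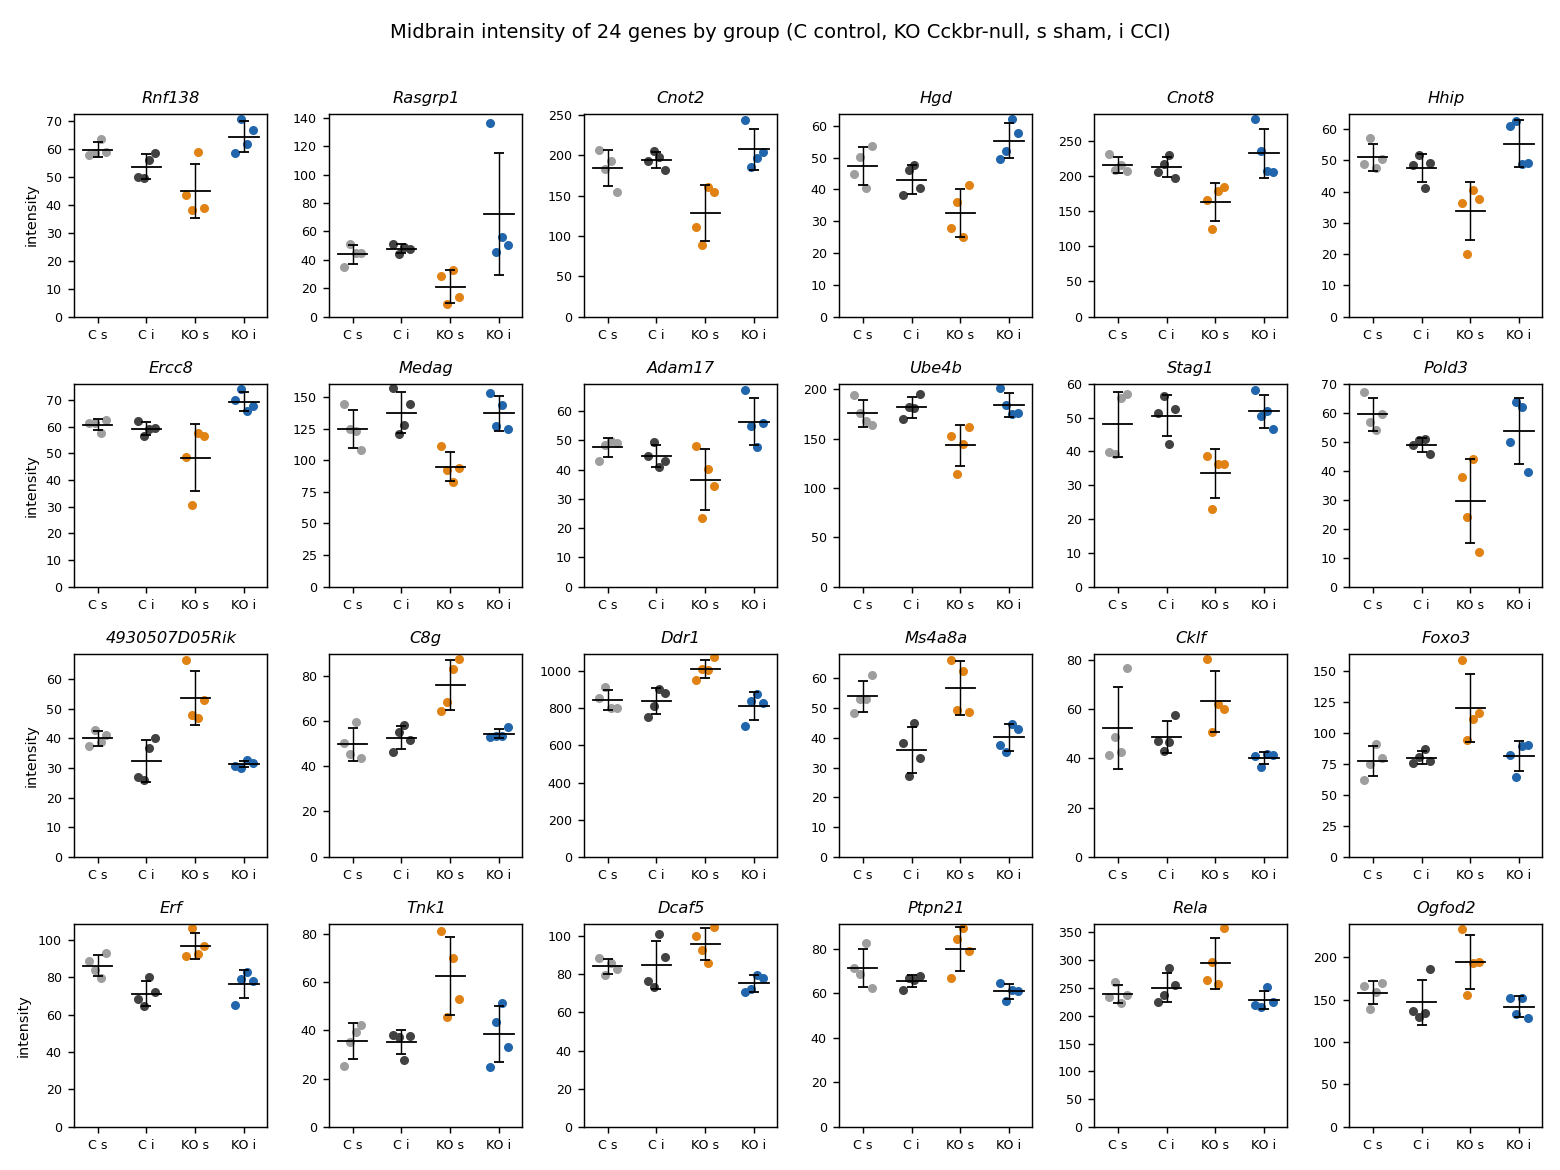
Intensity of the 24 genes of smallest unadjusted p in the 4 midbrain groups, with a linear vertical axis from 0. Points are arrays in the order of their replicate number, horizontal bars are means and vertical bars SDs (n = 4). The contrast of the KO sham arrays (orange) with the KO CCI arrays (blue) chose these genes, and none passed the threshold. In 20 genes the mean of the KO sham arrays falls outside the range of the 8 control arrays (grey). Over 9004 genes with a mean of at least 50 in a KO midbrain group it does so in 17.0%.

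The KO groups were then set beside control midbrain. For the 24 genes the KO sham mean lay outside the range of the 8 control arrays in 20 and the KO CCI mean in 9, and in 21 the CCI mean was the nearer of the pair to the control mean. The same arrays chose the genes, so the values over all genes are the ones to read. Among 9004 genes with a mean of at least 50 in a KO midbrain group, the KO sham mean lay outside the control range in 17.0% and the KO CCI mean in 7.36%. In 62.3% of them the KO CCI mean was the nearer to the control mean, by intensity, where the 21 were counted on the log2 scale. Of the 534 among them with an unadjusted p under 0.05 in limma's test, the share was 79.0%. KO sham midbrain also had the widest spread of the 4 groups and held the arrays that stood apart, and their part in this was not tested.

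In control midbrain 0 probe sets passed limma's test (0%), with 681 at an unadjusted p under 0.05 (3.01%). The genotype by CCI interaction, which tests whether the injury difference itself differed between KO and control mice, gave 0 past the threshold (0%), a smallest adjusted p of 0.823 and 1236 probe sets at an unadjusted p under 0.05 (5.46%). So no transcript was shown to respond to CCI differently in KO midbrain. Of the 24 genes, 13 had the same direction in control mice, where the share over all genes was 47.7%. An unadjusted interaction p under 0.05 was found for 19 of the 24. The KO difference that chose these genes is part of the interaction, so that count supports nothing. The largest interactions among the 24 were 1.03 for Rasgrp1 (SE 0.35), 0.80 for Pold3 and -0.63 for Tnk1. Rnf138 differed by 0.40 in KO and by -0.08 in control midbrain, C8g by -0.41 and 0.12, and Foxo3 by -0.50 and 0.08.

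**Figure D4:**
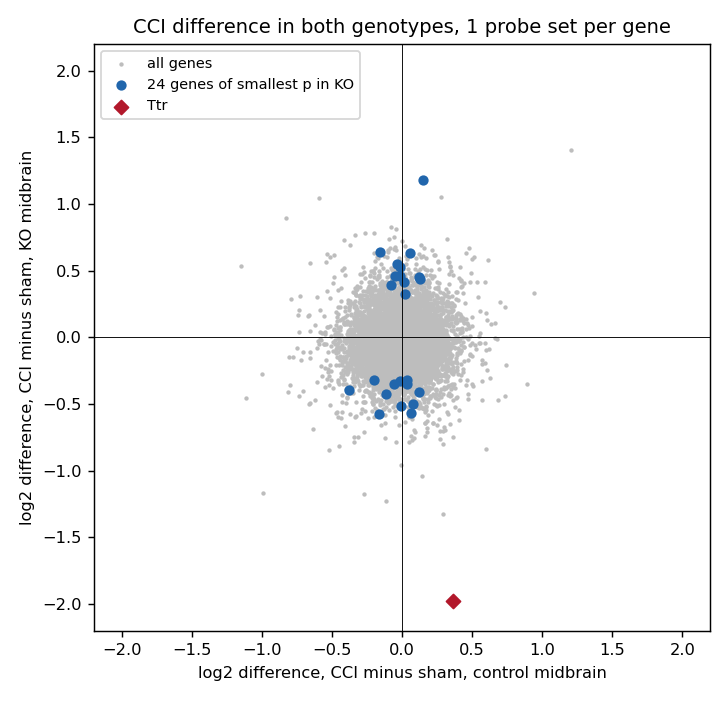
Log2 difference between CCI and sham in control midbrain (horizontal) and in KO midbrain (vertical), 1 point for each of 12393 genes. The 24 genes of smallest p in KO mice are blue and Ttr is the red diamond at -1.98 in KO and 0.36 in control mice. The cloud shows no slope (Pearson r = 0.00368 across genes, which are not independent replicates).

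In the medulla of the KO mice, 0 probe sets passed for CCI (0%), with 1032 at an unadjusted p under 0.05 (4.56%). The region by CCI interaction in KO mice likewise gave 0 (0%), with 837 at an unadjusted p under 0.05 (3.7%). Of the 24 genes, 17 had the same direction in KO medulla. The share over all genes was not counted, and across genes the differences in midbrain and medulla correlated at 0.10 (Pearson r). Both regions were taken to come from the same animals, so the 17 are not a replication. Cnot2, at 0.63 in midbrain, read 0.13 there (SE 0.12), and Pold3, at 0.64, read 0.53 (SE 0.19). Rasgrp1 read 0.37 (SE 0.27).

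Gene lists were then read as counts and medians. Over all 12393 genes with 1 probe set each, 5455 were higher after CCI, the median log2 difference was -0.02 and 6.14% had an unadjusted p under 0.05. In none of the 31 lists did a gene pass.

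The peptide systems that meet in descending pain control came first. Cck itself, the peptide ligand of the missing receptor, read 640.3, 761, 725 and 856 in the sham arrays and 991, 666, 756 and 808 after CCI, with overlap and a difference of 0.10 (SE 0.12, 95% interval -0.15 to 0.35), or 0.22 without KO sham 2 and 4. Of 10 opioid peptides and receptors 5 were higher, with a median of 0.01, or -0.01 without KO sham 2 and 4. Penk, the enkephalin precursor, differed by -0.10 (SE 0.10), Pnoc, the nociceptin precursor, by 0.06 (SE 0.08, or 0.095 without KO sham 2 and 4) and Oprk1, the kappa receptor, by 0.13 (SE 0.13). Oprl1, the nociceptin receptor, differed by -0.11 (SE 0.09), or -0.06 without KO sham 2, on its brightest probe set and by 0.50 (SE 0.26) and 0.29 (SE 0.14) on the others, where KO sham 2 was low. Of 30 other neuropeptides and receptors 16 were higher, with a median of 0.01, or 0.07 without both. Cartpt, which encodes a peptide of stress and feeding circuits, read 891 ± 149 in sham and 713 ± 126 after CCI (-0.33, SE 0.13, or -0.18 without KO sham 2 and 4). Tac2, the neurokinin B precursor, overlapped between the groups, from 59.9 to 120 in sham and from 57.6 to 225 after CCI (0.50, SE 0.46).

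Among transmitter receptors more genes read higher than lower after CCI, and the largest differences shrank without KO sham 2. Of 21 GABA and glycine genes 13 were higher (median 0.06, or 0.01 without KO sham 2), and of 18 glutamate receptor and transporter genes 13 were higher (median 0.08, or 0.04 without KO sham 4), with 0 passing. Gabrb2, a beta subunit of the GABA-A receptor, read 213, 42.5, 173 and 137 in KO sham 1 to 4 and 349, 241, 187 and 172 after CCI, a difference of 0.79 (SE 0.34) that was 0.39 without KO sham 2. Gabra3, an alpha subunit, differed by 0.52 (SE 0.17) and by 0.39 without that array. Grik2, a kainate receptor subunit, differed by 0.57 and by 0.29 without it, and Gria4, an AMPA receptor subunit, by 0.35 and 0.09.

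The same array decided the neuronal genes of largest difference. Syt1, the calcium sensor of synaptic vesicle release, read 960, 174, 794 and 710.1 in KO sham 1 to 4 and 1235, 972, 950.2 and 847 after CCI. Its difference of 0.81 (SE 0.35) was 0.30 without KO sham 2. Map2, a dendritic microtubule protein, read 296, 57.0, 271 and 258, then 414, 358, 323 and 285, a difference of 0.78 that was 0.31 without it. Kif5a, a motor of axonal transport, went from 0.63 to 0.12. The list of 28 pan-neuronal genes had a median of 0.02, or 0.01 without KO sham 2, with 18 higher, and its summed intensity ranged from 53850.4 to 62021.7 in sham and from 60205 to 62695 after CCI. KO sham 2 is the array of high Actb ratio, and the part of RNA integrity in these differences was not tested.

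Kcnj3, the inward rectifier channel subunit that opioid and other inhibitory receptors open, kept its order without that array. It read 77.5, 39.3, 81.9 and 84.3 in the sham arrays and 116, 96.1, 96.8 and 92.4 after CCI, with no overlap. The difference was 0.44 (SE 0.14), or 0.26 without KO sham 2. Kcna2, an axonal potassium channel, differed by 0.51 (SE 0.25) and by 0.15 without that array. Of the 28 ion channel genes studied in pain, 15 were higher, with a median of 0.02, or 0.05 without KO sham 2.

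Genes of nerve injury and growth factor signalling were split between both directions. Of 39 listed, 19 were higher and 20 lower, with a median of -0.01. Cntfr, the ligand-binding receptor subunit for ciliary neurotrophic factor, read 147, 296, 183 and 400 in the sham arrays and 113, 127, 127 and 188 after CCI, a difference of -0.75 (SE 0.24). KO sham 2 and 4 were the high arrays, and without both the difference was -0.25. The other Cntfr probe set read 0.12 (SE 0.13). Gdnf, a survival factor for dopamine neurons, read 169, 80.1, 102 and 82.1, then 68.9, 62.5, 82.8 and 63.03, a difference of -0.54 (SE 0.18) with an overlap of KO CCI 3 only. The difference was -0.81 without KO sham 2 and 4, a fit in which KO sham 1, the highest array, weighs more. Gfra1, the receptor subunit that binds Gdnf, read 60.4 ± 17.1 in sham and 85.6 ± 14.6 after CCI (0.42, SE 0.14), and its other probe set differed by 0.31 (SE 0.19). Control midbrain read 42.4 to 91.5 for Gdnf and 76.6 to 101 for Gfra1.

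In the innate immune lists more genes read lower than higher after CCI. Of 32 interferon response genes 6 were higher and 26 lower, with a median of -0.11. In this list 4 genes (12.5%) had an unadjusted p under 0.05, all lower. Over all 12393 genes the share was 6.14%, with 435 lower and 326 higher. Oasl2, an interferon-induced oligoadenylate synthetase-like protein, read 52.2, 42.5, 63.7 and 63.9 in the sham arrays and 42.01, 44.98, 17.1 and 36.3 after CCI, a difference of -0.54 (SE 0.18). Ifi27l2a, an interferon-induced mitochondrial protein, differed by -0.56, or -0.35 without KO sham 2 and 4. Relative to the mean of the 8 control arrays, the median of the list lay at -0.03, 0.22, 0.26 and 0.06 in KO sham 1 to 4 and between -0.05 and 0.03 in the KO CCI arrays. KO sham 2 and 3 were thus the high arrays. The median over genes of the difference between CCI and sham was -0.18 to -0.08 over the omissions of 1 array.

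Of 38 Toll-like receptor and innate signalling genes 13 were higher and 25 lower, with a median of -0.06 that was -0.01 without KO sham 2 and 0.01 within the higher array code (the arrays of replicates 3 and 4). Rela, described above, was among the 4 with an unadjusted p under 0.05 (10.5%, against 6.14% of all genes), all lower. Ccl2, a monocyte-attracting chemokine, read 111 ± 23.3 in sham and 90.2 ± 34.8 after CCI (-0.32, or -0.49 without KO sham 2 and 4). Of 31 microglia and macrophage markers 20 were higher, with a median of 0.04, or 0.12 without KO sham 2 and 4. P2ry12, a purine receptor of resting microglia, read 226, 83.6, 221 and 153 in the sham arrays and 249, 269, 234 and 224 after CCI, a difference of 0.53 (SE 0.20) that was 0.10 without KO sham 2 and 4. Tyrobp, a microglial signalling adaptor, differed by -0.20 (SE 0.18), which turned to 0.02 without KO sham 4 and 0.14 without KO sham 2 and 4. Trem2, its partner receptor, differed by -0.21 (SE 0.17), or -0.50 without both, and its other probe set by 0.02. In bulk tissue fewer cells of a type and less RNA per cell cannot be told apart.

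Other cell types were compared in the same way. Of 28 astrocyte markers 17 were higher (median 0.04, or 0.01 without KO sham 2 and 4). Gjb6, a gap junction protein, differed by 0.22 (SE 0.10), or 0.14 without KO sham 2, and Slc1a2 by 0.15, or 0.41 without KO sham 2 and 4. Vim read the other way, -0.20, or 0.04 without KO sham 2 and 4, as did S100b, -0.19, or -0.10 without KO sham 2. Of 26 oligodendrocyte and myelin genes 13 were higher (median 0.00, or -0.02 without KO sham 4). Fa2h, which makes hydroxylated myelin lipids, differed by -0.28 (SE 0.12) and Myrf by -0.21, or -0.04 for Myrf without KO sham 2 and 4. Car2 differed by 0.23 and Tspan2 by 0.22, and each by 0.02 without KO sham 2 and 4. Of 32 vessel genes 7 were higher and 25 lower, with a median of -0.05 that was 0.00 without KO sham 2 and 4. Tek, the angiopoietin receptor of endothelium, read 104 ± 16.9 in sham and 84.6 ± 9.31 after CCI (-0.27, SE 0.10, or -0.13 without KO sham 2 and 4), and Cdh5, the endothelial cadherin, differed by -0.31 (SE 0.19) and by -0.07 without KO sham 4. Hbb-b2, a beta-globin gene of red blood cells, read 1939.95 in KO sham 4 and 130 to 605 in the other 7 KO midbrain arrays, and its difference of -0.70 became 0.00 without that array.

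On the log2 scale the largest difference of the 12393 genes belonged to Ttr, transthyretin, the thyroid hormone carrier that the choroid plexus makes in bulk. It read 1205, 1138, 2219 and 5211 in KO sham 1 to 4 and 268, 354, 639 and 1073 in KO CCI 1 to 4, so every CCI array lay below every sham array. The difference was -1.98 (SE 0.63), or 3.93-fold lower, with an unadjusted p of 0.00713 in limma's test and no call after adjustment. The other probe sets of Ttr read -1.87 and -2.01. Control midbrain ranged from 181 to 2040 and differed by 0.36 (SE 0.63), and KO medulla differed by -0.61 (SE 0.66). Of 21 choroid plexus and ependymal genes 5 were higher, with a median of -0.14, and their summed intensity ranged from 2591 to 7009.6 in sham and from 1683 to 2743 after CCI. That sum includes Ttr itself, so it is not a separate result. Most defining markers other than Ttr were near background: Folr1 read 26.3 ± 4.54 in sham and 19.0 ± 6.70 after CCI, Kl 25.1 ± 14.1 and 21.0 ± 4.99, and Kcne2 -0.73 ± 2.57 and 1.59 ± 4.97. Otx2, a homeobox gene of choroid plexus and midbrain, read 123 ± 34.4 and 118 ± 36.6. The part of adhering choroid plexus in the Ttr difference was not tested.

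Region and cell state markers gave further values for the dissection. Tcf7l2, a Wnt-pathway factor strong in thalamus and dorsal midbrain, read 491, 1552, 529 and 944 in KO sham 1 to 4 and 378 to 612 after CCI, a difference of -0.65 that was -0.03 without KO sham 2 and 4. Its other probe sets read -0.20, -0.24 and 0.13. Of 34 midbrain patterning genes 10 were higher (median -0.10, or -0.06 without KO sham 2), and Nkx6-2, a homeobox gene of oligodendrocytes and neurons, read 89.2, 98.3, 120 and 133, then 79.5, 82.95, 89.3 and 78.7 (-0.37, SE 0.10), with KO CCI 3 just above the lowest sham array. Rgs9, a G-protein regulator rich in striatum, differed by -0.30 (SE 0.10). Of 13 serotonin and noradrenaline genes 5 were higher, with a median of -0.17. Its Htr2c, a serotonin receptor, read 203, 105, 187 and 194 in the sham arrays and 202 to 217 after CCI, and its difference of 0.29 was 0.11 without KO sham 2. Other genes of this list read lower, Adra2c by -0.30, Dbh by -0.25 and Gata3 by -0.19. Without KO sham 2 and 4 Gata3 differed by -0.08.

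Activity and protein turnover genes were the last groups. Of 37 immediate early genes 10 were higher and 27 lower, with a median of -0.08 that was -0.02 without KO sham 2. Homer1, a synaptic scaffold with an activity-induced form, differed by 0.34 (SE 0.14), with 0.39 (SE 0.19) and -0.30 (SE 0.17) on its other probe sets, and which form each probe set reads is not told here. Klf2 differed by -0.32 (SE 0.26), or -0.05 without KO sham 2. Of 35 proteasome and ubiquitin genes 27 were higher, with a median of 0.06 that stayed between 0.04 and 0.09 under each omission of 1 array and was 0.03 without KO sham 2 and 4. Usp14, a deubiquitinase bound to the proteasome, read 477 ± 40.6 in sham and 590 ± 82.1 after CCI (0.29, SE 0.10), while its other probe sets read -0.08 and 0.01. Psmb3, a core proteasome subunit, differed by -0.22 (SE 0.10), or -0.12 without KO sham 4. Of 41 RNA splicing and nuclear RNA-binding genes 31 were higher, with a median of 0.03, or 0.005 without KO sham 2 and 4, and Clk4, a kinase of splicing factors, differed by 0.35 (SE 0.15), or 0.20 without both. None of these genes passed.

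**Figure D5:**
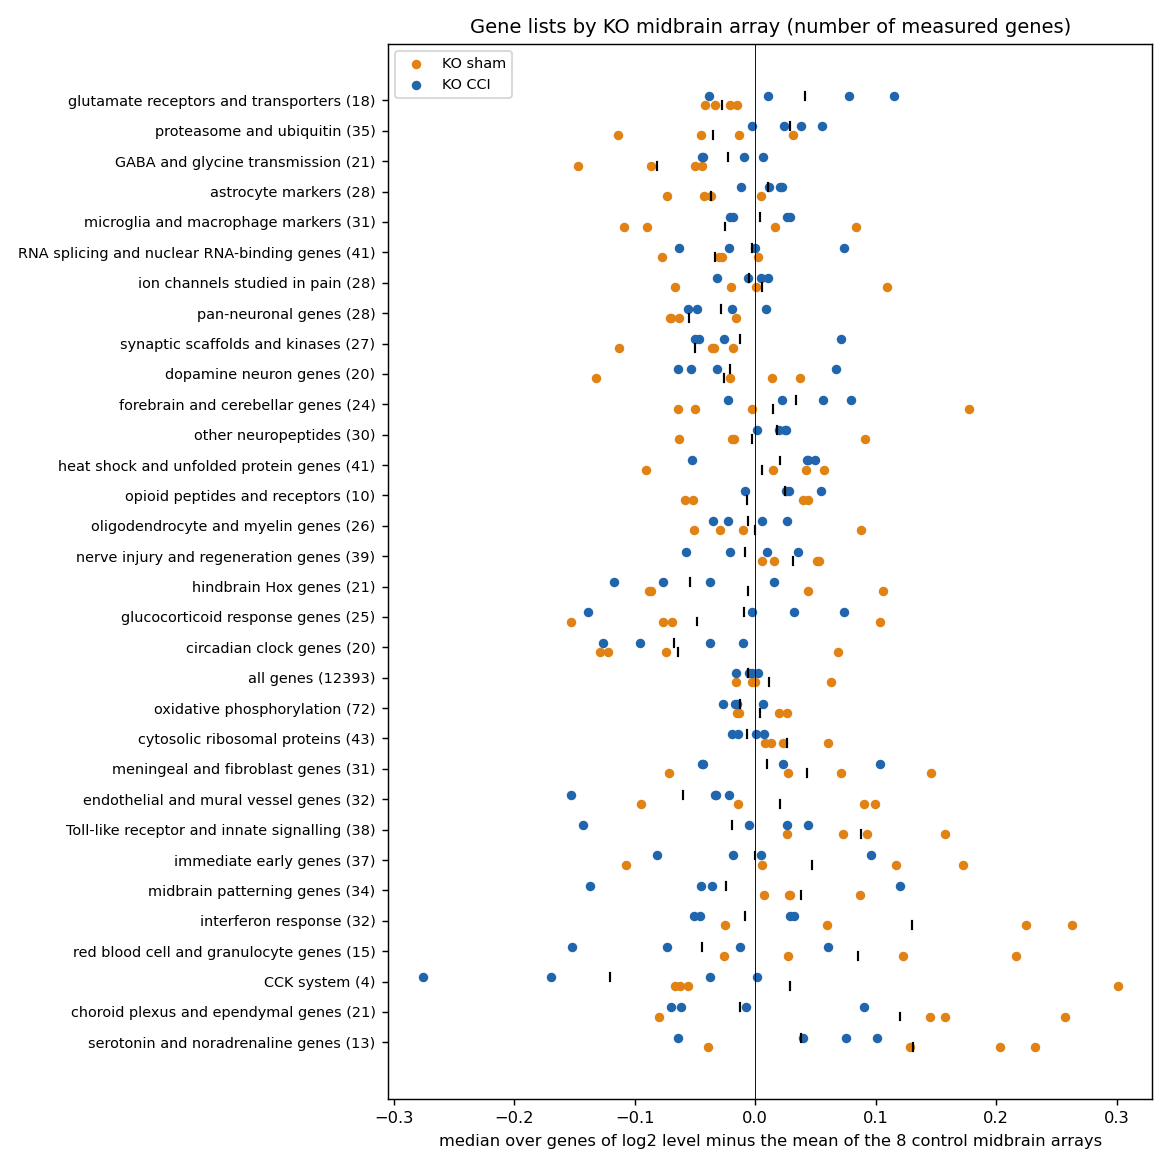
For each gene list, the median over its genes of the log2 level minus the mean of the 8 control midbrain arrays, in each KO sham array (orange) and each KO CCI array (blue), with short black lines at the group means and the number of measured genes in brackets. Lists are ordered by the median difference between CCI and sham. The interferon list lies at 0.22 and 0.26 in KO sham 2 and 3.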

How the data were processed

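The authors' deposited table gave 1 background-subtracted intensity per probe set and array on a linear scale, already brought to a common level between arrays. No label or header used here states the method. Per the labels, 4 ug of total RNA was labelled per array. No 2 arrays were identical (0 identical pairs).

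Values below 0 were set to 0, 16 was added, and log2 values of the 16 midbrain arrays were quantile normalized. The 64 AFFX control probe sets were left out and 22626 tested, with no filter on level. Limma 3.58.1 (R 4.3.3) fitted 4 group means (lmFit, eBayes). Regions were compared on 32 arrays and 8 means. The threshold was an adjusted p under 0.05. Within a region every array is a separate animal per the design, so midbrain p-values measure the spread between animals. Midbrain and medulla arrays were taken to come in pairs from the same animals, with a consensus correlation of 0.24 between the regions. Titles and array numbers pair some KO sham arrays differently. The regional fit treated all 32 arrays as independent. With animal as a random block, 0 probe sets passed for the region by CCI interaction. Intensities in the text are as deposited.

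Gene names came from the platform annotation: 20380 probe sets had 1 symbol (12393 genes), 691 several and 1555 none. Per gene, lists used the probe set of highest mean. Probe sets with the suffix x or s can match other transcripts. They include some of Ddr1, Ttr, Tcf7l2, Kif5a, Cklf, Usp14 and Trem2, and all other probe sets of Cnot2. Of 1000 listed symbols, 171 were not measured under a single symbol.

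Named were up to 12 genes per direction past the threshold, otherwise those of smallest unadjusted p with a mean of at least 50 in a KO midbrain group, and per list up to 4 genes of largest difference at that level. The members and lists were chosen with earlier results of these data known. Scripts were tested on simulated data. Alternatives were other scaling, pseudocounts, variance models and array sets. The Actb covariate was chosen after seeing the data.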

Additional observations from a re-analysis of the deposited data

Results flagged for a closer look

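In groups of 4 arrays, a sample was marked when its gap to the nearest other array, divided by the range of the group on the log2 scale, exceeded Dixon's 95% critical value for 4 samples. Chance marks about 5% of groups, and 10 of 134 groups (67 genes, KO sham and KO CCI midbrain) were marked.

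In 5 of these KO sham 2 was the lowest array. The ratios were 0.969 for Kcna2 (29.3 against 111 to 113 in the other sham arrays), 0.878 for Cckbr (at background on every KO array), 0.874 for Map2 (57.0 against 258 to 296), 0.849 for Kcnj3 (39.3 against 77.5 to 84.3) and 0.845 for Htr2c (105 against 187 to 203).

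Rnf138 in KO sham 3 had a ratio of 0.915, at 58.9 against 38.1 to 43.3. Rasgrp1 in KO CCI 1 had a ratio of 0.841, at 137 against 45.7 to 56.2. Among CCI arrays the lowest value stood apart for Kcna2 in KO CCI 3 (0.927, 113 against 129 to 132), Penk in KO CCI 1 (0.838, 391 against 470 to 484) and Cdh5 in KO CCI 2 (0.8292, 109 against 130 to 136).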

How the results depend on the processing

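No setting among those run gave a named gene the opposite direction. The same contrast chose these genes and the settings share arrays, so the unchanged direction supports nothing. Of 769 values for the 24 genes, 756 stayed short of the threshold, 13 newly passed and 0 were reversed. The 13 came from the fits without KO sham 1 and 3 or, for Hgd, without KO sham 2 and 4. The count of probe sets past the threshold for CCI in KO midbrain was 2 without KO sham 2 and 4 and 716 without KO sham 1 and 3, and 0 in each other setting. For the genotype by CCI interaction it was 1 and 112 in those fits. For the region by CCI interaction it was 1 without KO sham medulla 1, and 0 to 1 over the omissions of 1 array. The count at an unadjusted p under 0.05, 1858, became 999 with only the groups of the comparison, 922 within the higher array code, 799 with 1 probe set per gene (fewer were tested), 4997 without KO sham 1 and 3 and 1073 with the Actb ratio as a covariate. It ranged from 1005 to 2987 over the omissions of 1 array. The share higher, 60.3%, was 50.05% without KO CCI 1. Apart from the arrays left out and the probe sets tested, the cause was not tested.

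The title number was also fitted as a replicate block: 0 probe sets passed and 2178 had an unadjusted p under 0.05. Same-numbered KO sham and KO CCI arrays correlated at 0.058, 0.13, 0.19 and 0.093 in their deviations from the group means, so not every pair was over 0.1 and the numbers were not taken to pair animals. Replicates 1 and 2 lie in a lower and replicates 3 and 4 in a higher array code in the KO midbrain. Within these codes Rasgrp1 read 1.53 and 0.83, Cnot2 0.94 and 0.34, Oasl2 -0.11 and -0.98, and Ttr -1.93 and -2.02. Probe sets near background, such as Gsc and Cckbr in KO mice, give no usable difference.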
